A study of Mus musculus with 4 samples.

Results

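A set of 10 genes of water and ion handling was followed in the mouse uterus: the aquaporins Aqp1, Aqp3, Aqp5, Aqp8 and Aqp11, the epithelial sodium channel subunits Scnn1a, Scnn1b and Scnn1g, the chloride and bicarbonate channel Cftr and the carbonic anhydrase Car2. They were chosen by name for their part in the control of uterine fluid, and 10 of 10 were found among the 23235 genes of both deposited tables. RNA came from luminal epithelium and from stroma captured by laser microdissection on day 4 of pseudopregnancy, which mating to a vasectomized male sets off. The controls were labelled Msx1f/f/Msx2f/f, with floxed alleles of a pair of homeobox genes, Msx1 and Msx2. The knockouts were labelled Msx1d/d/Msx2d/d. The series describes 1 mouse of each genotype and a deletion specific to the uterus, and each compartment gave 1 library per genotype, 4 libraries in all. The sources used here did not give the driver of the deletion, the age of the mice or whether 1 mouse supplied both compartments. No value below has a replicate, so genotype and animal cannot be told apart, and higher and lower describe these libraries.

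Fluid in the uterine cavity is set by secretion and absorption across the epithelium that lines it. Chloride and bicarbonate leave through the channel encoded by Cftr and water follows, while absorption runs through the epithelial sodium channel at the apical membrane and the sodium pump at the basolateral membrane. Estrogen is known to favour secretion and progesterone absorption, and removal of fluid helps the cavity close around the embryo. Carbonic anhydrase supplies bicarbonate and protons from carbon dioxide and water, and aquaporins are pores for water, some of them also for glycerol.

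Values are RPKM, a read density scaled to transcript length and to the mapped reads of the library, which allows levels of different genes to be set side by side within a library. Sequencing depth, estimated from the spacing of low values, was 6.28 M reads (M, mega) in control and 90.7 M in labelled knockout luminal epithelium, a 14.4-fold gap, and 42.7 M and 62.5 M in the stroma libraries. A listed 0 is not read as absence, since Rpl26, a ribosomal protein gene, was also listed at 0 in both controls. The targeted gene Msx1 read 23.2 RPKM in control and 13.6 RPKM in labelled knockout luminal epithelium and 0.0467 and 0.0207 RPKM in stroma. For Msx2 the luminal epithelium libraries read 1.31 and 2.06 RPKM, which goes against the label, and the stroma libraries 0.135 and 0.0564 RPKM, so the wording labelled knockout is used throughout. The 7 general epithelial markers summed to 249 and 266 RPKM in luminal epithelium and to 1.02 and 0.383 RPKM in stroma, control before labelled knockout. The 8 stromal markers summed to 12.6 and 5.07 RPKM in luminal epithelium and to 363 and 526 RPKM in stroma. In captured tissue, fewer cells of a type and less RNA per cell cannot be told apart.

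The 10 genes fell into a small expressed set and a larger set near the limit of detection. Car2 and Aqp11 were the 2 genes at or above 1 RPKM in both luminal epithelium libraries, and in control they made up 79.0% (Car2) and 18.3% (Aqp11) of the summed RPKM of the 10 genes. In labelled knockout the shares were 54.3% for Car2 and 42.8% for Aqp11, while the sum itself was 59.1 RPKM in control and 56.9 RPKM in labelled knockout. In stroma the sum was 2.74 RPKM in control and 5.26 RPKM in labelled knockout, and 0 and 2 of the 10 genes reached 1 RPKM. The order of levels in control luminal epithelium was Car2, Aqp11, Scnn1a, Cftr and Scnn1b, with the other 5 listed at 0. In control stroma the order was Scnn1b, Aqp1, Car2 and Aqp11, followed by Scnn1a, Aqp3, Aqp8 and Scnn1g below 0.1 RPKM, with Aqp5 and Cftr listed at 0. The plot of levels by library shows that none of the 10 genes was abundant in stroma.

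**Figure D1:**
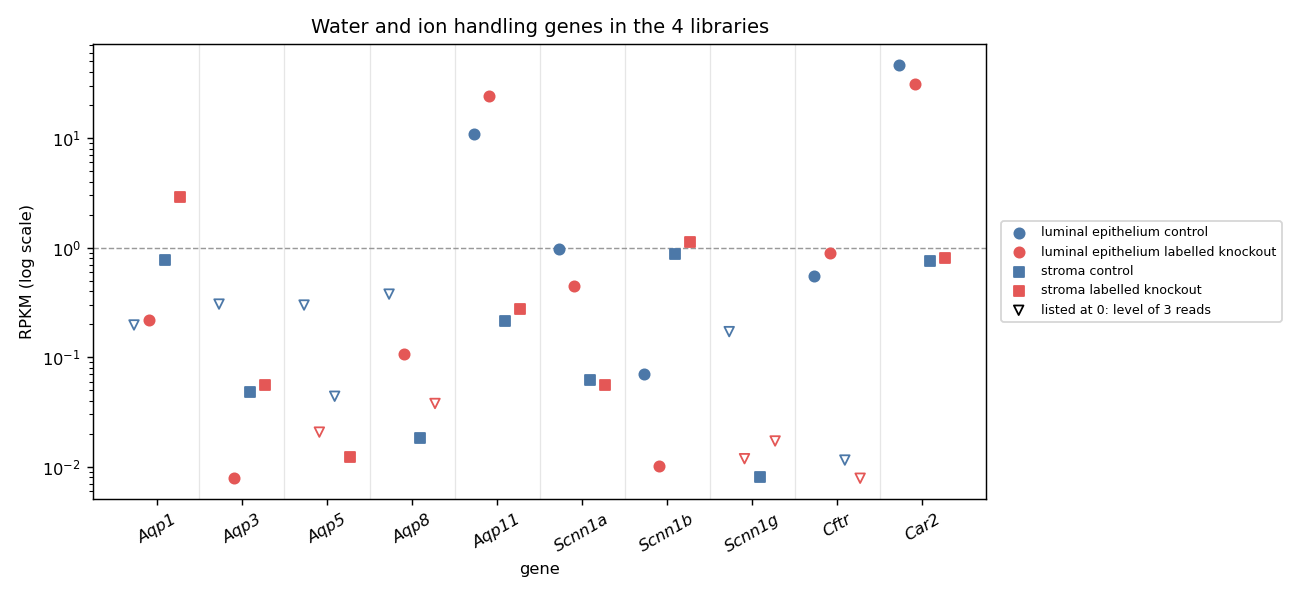
RPKM of each gene (log scale) in the 4 libraries, circles for luminal epithelium and squares for stroma, blue for control and red for labelled knockout, with a dashed line at 1 RPKM. Open triangles mark values listed at 0, drawn at the level that 3 reads would give. Car2 and Aqp11 stand above 10 RPKM in both luminal epithelium libraries, and Aqp1 reaches 2.92 RPKM in labelled knockout stroma.

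Comparison of genotypes within each compartment asked whether these genes differed in the labelled knockout. Genes whose 2 libraries averaged 1 RPKM or more were kept. Differences were log2((labelled knockout + 1)/(control + 1)), and those of 1 or more in size, 2-fold on that scale, counted as higher or lower. In luminal epithelium 2 of the 10 genes were kept, and 1, Aqp11, was higher and 0 lower, where 5.03% of the 7736 genes kept were higher and 1.99% lower, 7.02% in all. The median over the 2 kept genes, Aqp11 at 1.10 and Car2 at -0.58, was 0.26, beside 0.10 over all genes kept. These medians were 0.02 and -0.09 after scaling to sums that leave out the 50 most abundant genes. In stroma 2 of the 10 genes were kept, and 1, Aqp1, was higher and 0 lower, where 1.45% of the 7723 genes kept were higher and 1.59% lower, 3.04% in all. The median over the 2 kept genes, Aqp1 at 1.15 and Scnn1b at 0.19, was 0.67, beside 0.07 over all genes kept. Higher genes made up 71.6% of the genes past the threshold in luminal epithelium, and 57.2% after the libraries were scaled to sums that leave out the 50 most abundant genes, which moved the median of all genes there by -0.19.

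Counting limits gave a separate view that included low genes. They are exact (Clopper-Pearson) at 95%, cover counting error only, and are approximate because read numbers were estimated. In luminal epithelium 4 of the 10 genes had more than 3 estimated reads in both libraries, and the limits of the ratio left out 1 for all 4 of these, Aqp11 and Cftr higher and Car2 and Scnn1a lower. Over all 10713 genes with that many reads, 19.5% were higher and 14.3% lower by these limits, 33.9% in all. After scaling to sums that leave out the 50 most abundant genes, an alternative added after the data were seen, the limits of Cftr included 1, which left 1 gene higher and 2 lower. In stroma 6 genes had more than 3 reads in both libraries and the limits left out 1 for 1 of them, Aqp1, against 22.4% higher and 13.3% lower, 35.7% in all, of 14241 genes. The authors' deposited table marked 0 of the 10 genes significant in either compartment. Over all 23235 genes it marked 94 in luminal epithelium and 5 in stroma. Some of the 10 genes were listed there as not tested, among them Aqp1 in luminal epithelium and Aqp11 in stroma.

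**Figure D2:**
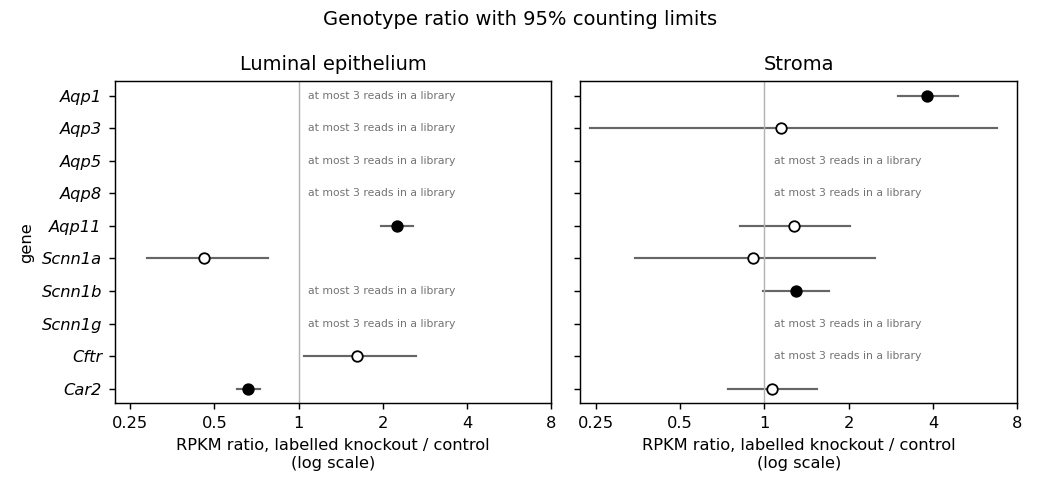
Ratio of RPKM in labelled knockout over control (log scale) for each gene, luminal epithelium on the left and stroma on the right, with lines for 95% counting limits on the estimated reads. Filled points average 1 RPKM or more, and no ratio is drawn where a library held at most 3 reads. Aqp11 at 2.25 in luminal epithelium and Aqp1 at 3.82 in stroma lie farthest above 1.

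Lists of cell type markers also differed between the luminal epithelium libraries in which Aqp11, Cftr, Car2, Scnn1a, Sgk1 and Slc12a2 are compared below. Glandular markers, 3 of 5 higher in the labelled knockout, summed to 12.2 RPKM in control and 47.0 RPKM in labelled knockout. Most of it came from Ltf, the lactoferrin gene, at 11.1 and 41.8 RPKM. The sum therefore mainly follows 1 gene and is not a measure of gland content. Of the 5 glandular markers 2 were kept and 2 were higher past the threshold, where 5.03% of all genes kept were higher. Ratios over the list ran from 0.354 to 6.16. The gland regulator Foxa2 read 0.0881 and 0.0312 RPKM, and Spink3 was listed at 0 in both libraries. In the shallow control 1 read per kb gives 0.159 RPKM, so the control value of Foxa2 rests on few reads. Leukocyte markers, 1 of 6 higher, summed to 15.5 and 2.53 RPKM, and smooth muscle markers, 0 of 6 higher, to 4.95 and 0.572 RPKM. Stromal markers were lower in 8 of 8, while general epithelial markers were higher in 4 of 7, or in 2 of 7 after scaling to sums that leave out the 50 most abundant genes, with ratios from 0.794 to 1.34 before it. Ltf and Foxa2 were singled out after their values were seen, and the part of these cell types in the differences of the transport genes was not tested.

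Among the water channels, Aqp11, an aquaporin of intracellular membranes, was the one abundant in luminal epithelium. In mm9 Aqp11 lies on chromosome 7, 104874889 to 104886757. Luminal epithelium held 10.8 RPKM of Aqp11 in control and 24.3 RPKM in labelled knockout, and stroma 0.215 and 0.274 RPKM. Both luminal epithelium libraries were far above both stroma libraries, and Aqp11 ranked 830 among all genes in the control and 444 in the labelled knockout. The ratio of labelled knockout to control was 2.25 in luminal epithelium, with counting limits of 1.98 and 2.57, and the log2 difference was 1.10. Scaling to sums that leave out the 50 most abundant genes gave a log2 difference of 0.87, below the threshold of 1. In stroma the ratio was 1.27, with limits of 0.818 and 2.01 that include 1. The q-value of Aqp11 in the authors' deposited table was 0.910 in luminal epithelium.

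Aqp1, the water pore of capillary endothelium and red cells, showed the opposite placement. Aqp1, on chromosome 6 at 55286293 to 55298549, read 0.765 RPKM in control and 2.92 RPKM in labelled knockout stroma. In luminal epithelium it read 0 in control and 0.218 RPKM in labelled knockout, in a control library where 3 reads would give 0.197 RPKM. In stroma the ratio was 3.82, with limits of 3.002 and 4.91, and the log2 difference of 1.15 stayed past the threshold under both rescalings, at 1.11 and 1.11. The q-value in the authors' deposited table was 0.464.

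Markers of cell types were set beside Aqp1 in stroma, among them endothelium and red cells, which are known to make Aqp1. Of the 6 endothelial markers 2 were higher in labelled knockout stroma, with ratios from 0.788 to 1.25, and their sum was 30.5 RPKM in control and 27.6 RPKM in labelled knockout. Of the 5 erythrocyte markers used, 1 was higher, at a ratio of 1.11, and the sum was 0.640 and 0.568 RPKM. Smooth muscle markers, 4 of 6 higher, summed to 16.0 and 18.6 RPKM with ratios from 0.809 to 6.30, the highest being that of Actg2, a smooth muscle actin, at 0.0199 and 0.125 RPKM and named after its values were seen. Leukocyte markers, 0 of 6 higher, summed to 107.5 and 47.2 RPKM, and stromal markers, 5 of 8 higher, summed to 363 and 526 RPKM. None of the 6 leukocyte and 7 general epithelial markers was higher in the labelled knockout stroma. Of 5 glandular markers 1 was higher, at a ratio of 3.91, above that of Aqp1, and the sum was 0.771 and 0.144 RPKM. Of 4 luminal epithelial markers 1 was higher, at 1.72, with sums of 0.0595 and 0.0495 RPKM. The part of any cell type in the Aqp1 value was not tested.

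**Figure D3:**
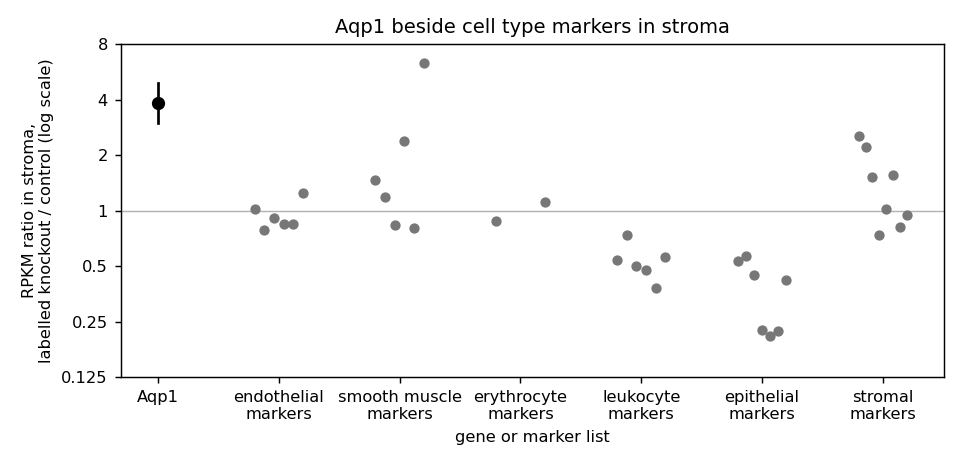
Ratio of RPKM in labelled knockout over control stroma (log scale) for Aqp1, with its 95% counting limits as a line, and for each marker of 6 cell types as a point. Markers at 0 in either stroma library or with a mean under 0.01 RPKM are not drawn, nor are the glandular and luminal epithelial lists. Aqp1 at 3.82 lies above all 6 endothelial markers, which range from 0.788 to 1.25, and below the highest smooth muscle marker, at 6.30.

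The promoters of these water channels are shown because their genes were expressed in different compartments. RefSeq promoters (build GRCm38.p6) were matched for 8 of the 10 genes, with no match for Car2 and Scnn1a, and the 250 bases before each start are given, 5′ to 3′. The stretch of Aqp11 lies on the minus strand at chr7:97738248-97738497 and that of Aqp1 on the plus strand at chr6:55336049-55336298. Capitals mark GGTCA, an arm of the estrogen response element, or GGGCGG, the Sp1 box, on either strand.
Aqp11: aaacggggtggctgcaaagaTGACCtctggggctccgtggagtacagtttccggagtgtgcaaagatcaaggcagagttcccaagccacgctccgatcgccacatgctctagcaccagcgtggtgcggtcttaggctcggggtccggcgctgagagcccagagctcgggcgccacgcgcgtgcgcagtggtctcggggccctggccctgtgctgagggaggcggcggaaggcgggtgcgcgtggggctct
Aqp1: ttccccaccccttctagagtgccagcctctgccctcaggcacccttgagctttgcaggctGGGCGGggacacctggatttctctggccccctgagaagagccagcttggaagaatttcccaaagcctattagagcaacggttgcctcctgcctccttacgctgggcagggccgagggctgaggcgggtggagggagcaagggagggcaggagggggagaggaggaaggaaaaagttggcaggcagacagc
The Aqp11 stretch held 23 CG dinucleotides and 67.2% G and C, and that of Aqp1 held 5 CG dinucleotides and 62.0% G and C, beside medians of 6 and 52.4% over 32851 promoters. Aqp11 had GGTCA on the reverse strand at -230 to -226 from its start, and Aqp1 had GGGCGG at -190 to -185.

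The other aquaporins of the set were near the limit of detection. Aqp8, a water pore of secretory epithelia, read 0 in control and 0.108 RPKM in labelled knockout luminal epithelium and 0.0182 and 0 RPKM in stroma. In the shallow luminal epithelium control 3 reads would give 0.376 RPKM for Aqp8. The listed 0 there does not exclude a level such as that of the labelled knockout. Aqp3, a pore for water and glycerol, reached at most 0.0552 RPKM, in labelled knockout stroma, and its stromal ratio of 1.14 had limits of 0.238 and 6.76. Aqp5, a water pore of glands, was listed at 0 in 3 libraries and at 0.0122 RPKM in labelled knockout stroma, the level of about 1 read. Aqp5 lies between its relatives Aqp2, 6.48 kb away, and Aqp6, 6.57 kb away, on chromosome 15. Aqp6 was listed at 0 in all 4 libraries and Aqp2 in 3, with 0.0152 RPKM in labelled knockout stroma.

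Of the 7 aquaporins outside the set, 0 reached a mean of 1 RPKM over any pair. Aqp4, a water-selective pore, was the highest of them, at 0.924 RPKM in control and 0.227 RPKM in labelled knockout luminal epithelium, and was listed at 0 in both stroma libraries. The control was 4.08-fold higher, with limits of 2.59 and 6.25. Aqp7, a pore for glycerol, was at 0.204 and 0.159 RPKM in luminal epithelium and 0.144 and 0.164 RPKM in stroma, and Aqp9 was at most at 0.139 RPKM.

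The 3 sodium channel subunits, which together form the absorptive channel, did not share a compartment. Scnn1a, the alpha subunit, on chromosome 6 at 125271358 to 125294960, read 0.969 RPKM in control and 0.446 RPKM in labelled knockout luminal epithelium and 0.0621 and 0.0563 RPKM in stroma. Scnn1b, the beta subunit, on chromosome 7 at 129008625 to 129062030, read 0.0709 and 0.0101 RPKM in luminal epithelium and 0.876 and 1.14 RPKM in stroma. Scnn1g, the gamma subunit (chromosome 7, 128878021 to 128911991), was listed at 0 in 3 libraries and at 0.00813 RPKM in control stroma, about 1 read. Scnn1a was thus higher in both luminal epithelium libraries than in either stroma library, and Scnn1b the reverse.

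The luminal epithelium control was 2.17-fold higher in Scnn1a than the labelled knockout, with limits of 1.29 and 3.48, resting on 20.1 estimated reads in the control and 133.5 in the labelled knockout. With a mean below 1 RPKM, Scnn1a was outside the count of genes past the threshold, and its log2 difference with the pseudocount was -0.44. In stroma the Scnn1a ratio was 0.906, with limits of 0.345 and 2.48. The stromal ratio of Scnn1b was 1.30, with limits of 0.991 and 1.71 that reach 1. In luminal epithelium Scnn1b rested on about 1 read in control and 2.08 in labelled knockout, so no genotype ratio is given.

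Scnn1b and Scnn1g are neighbours on chromosome 7, 96.6 kb apart in mm9, and their promoters are shown because the 2 genes differed in level in the same stroma libraries. The stretch of Scnn1b lies on the plus strand at chr7:121864788-121865037 and that of Scnn1g on the plus strand at chr7:121734229-121734478 (GRCm38.p6). Capitals mark GGTCA or GGGCGG on either strand, as above.
Scnn1b: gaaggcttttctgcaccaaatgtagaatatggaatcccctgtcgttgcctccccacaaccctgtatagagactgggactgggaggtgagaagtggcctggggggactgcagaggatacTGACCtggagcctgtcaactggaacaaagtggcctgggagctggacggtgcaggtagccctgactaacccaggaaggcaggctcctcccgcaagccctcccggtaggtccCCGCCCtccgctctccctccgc
Scnn1g: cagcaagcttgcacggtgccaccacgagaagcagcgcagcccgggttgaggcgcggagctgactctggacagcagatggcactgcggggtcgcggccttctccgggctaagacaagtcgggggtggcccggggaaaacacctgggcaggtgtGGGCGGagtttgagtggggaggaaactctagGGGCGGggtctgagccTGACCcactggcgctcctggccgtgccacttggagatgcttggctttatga
Scnn1b held 7 CG dinucleotides and 60.8% G and C, and Scnn1g held 16 and 65.2%. Both had GGTCA on the reverse strand, Scnn1b at -132 to -128 and Scnn1g at -51 to -47, and both had GGGCGG on either strand, Scnn1b with 1 match and Scnn1g with 2.

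Over the 8 matched promoters, on both strands, GGGCGG was found in 6, Aqp1, Aqp3, Aqp5, Scnn1b, Scnn1g and Cftr, against 32.7% of all 32851 promoter stretches of that length. GGTCA was found in 4, Aqp5, Aqp11, Scnn1b and Scnn1g, against 35.2%. TAATTG, a core of homeobox protein binding, was found in 0 of 8, against 7.17%, and TGTTCT, an arm of the progesterone response element, in 0 of 8, against 16.1%. TATAAA was found in 1, Aqp3, against 12.4%. The letters of these motifs differ and were searched separately, and in Cftr 3 matches of GGGCGG overlapped one another. A match describes letters in the window and not a bound site.

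Proteases that activate the sodium channel, and their inhibitors, were expressed in luminal epithelium above the level of the channel genes. All 8 channel-activating proteases and their inhibitors on the list had a mean of at least 1 RPKM there, with 0 higher and 0 lower by genotype, and a median log2 difference of 0.24 beside 0.10 over all genes kept, with 7 of 8 above 0. After scaling to sums that leave out the 50 most abundant genes the median was 0.02, with 4 of 8 above 0. Prss8, a protease that activates the channel by cleavage and was named after its values were seen, was at 10.9 and 11.6 RPKM in luminal epithelium and at 0.0444 and 0.0402 RPKM in stroma. Spint2, an inhibitor of such proteases, was at 31.9 and 43.3 RPKM in luminal epithelium and 0.874 and 0.582 RPKM in stroma. Tmprss2, a membrane serine protease, was at 9.16 and 14.4 RPKM in luminal epithelium and 0.161 and 0.0375 RPKM in stroma. Furin, which cleaves channel subunits, was at 1.94 and 2.08 RPKM in stroma and 2.53 and 2.54 RPKM in luminal epithelium. Serpine2, a secreted protease inhibitor, was at 1.52 and 2.95 RPKM in stroma and 3.47 and 4.89 RPKM in luminal epithelium.

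Of 14 kinases, ubiquitin ligases and steroid control genes of the channel, 9 were kept in luminal epithelium and 1 was higher, Sgk1. The share of higher genes over all those kept there was 5.03%. Sgk1, a kinase that keeps the channel at the membrane, was at 17.6 and 45.4 RPKM in luminal epithelium, 2.59 times the control (limits 2.29 and 2.94), and at 1.57 and 1.67 RPKM in stroma. In the same libraries Scnn1a was lower in the labelled knockout. Nedd4, a ubiquitin ligase of the family that removes the channel, was at 18.7 and 24.8 RPKM in luminal epithelium and at 38.7 and 46.1 RPKM in stroma. In stroma 9 were kept and 0 were higher or lower. Hsd11b2, which inactivates glucocorticoids so that they do not occupy the mineralocorticoid receptor, read 12.4 and 21.9 RPKM in stroma, 1.77 times the control (limits 1.64 and 1.92). In luminal epithelium Hsd11b2 was at 0.524 and 0.286 RPKM.

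Absorption is driven by the sodium pump, and a regulator of it was the most abundant of the transport genes listed in luminal epithelium. This gene, Fxyd4, read 323 RPKM in control and 531 RPKM in labelled knockout luminal epithelium and 0.291 and 0.152 RPKM in stroma. Atp1b3, a beta subunit, was at 5.86 and 10.1 RPKM in luminal epithelium and 13.7 and 13.9 RPKM in stroma. Of 14 pump genes 5 were kept in luminal epithelium, 5 of them above 0 and 0 past the threshold. Their median log2 difference was 0.57, beside 0.10 over all genes kept. After scaling to sums that leave out the 50 most abundant genes 4 of the 5 were above 0, with a median of 0.34 beside -0.09. In stroma 6 were kept, 4 above 0, with 0 past the threshold.

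Cftr, the secretory anion channel, was low in luminal epithelium and listed at 0 in stroma. Cftr, on chromosome 6 at 18120687 to 18272769, read 0.551 RPKM in control and 0.891 RPKM in labelled knockout luminal epithelium and 0 in both stroma libraries. The ratio in luminal epithelium was 1.62, with limits of 1.05 and 2.64, and rested on 21.1 estimated reads in control. After scaling to sums that leave out the 50 most abundant genes the Cftr ratio was 1.36, with limits of 0.884 and 2.22 that include 1, and the log2 difference moved from 0.29 to 0.19. Its q-value in the authors' deposited table was 0.999999. Against Scnn1a, a subunit gene of the absorptive channel, Cftr was lower in the control and higher in the labelled knockout. The order in the control rests on about 20.1 reads of Scnn1a and 21.1 of Cftr, and no limits were computed for it.

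Genes that load chloride into the cell or move acid and base gave 1 lower gene. Slc12a2, the sodium, potassium and chloride cotransporter that feeds chloride secretion, read 10.8 RPKM in control and 4.07 RPKM in labelled knockout luminal epithelium. The control was 2.66-fold higher, with limits of 2.39 and 2.95, and the log2 difference was -1.22. In stroma Slc12a2 was at 2.11 and 2.50 RPKM, 1.18 times the control (limits 1.07 and 1.31). Slc9a2, a sodium and proton exchanger, was at 0.246 and 1.61 RPKM in luminal epithelium, 6.57 times the control (limits 3.24 and 15.9), and was listed at 0 in stroma. Its mean was below 1 RPKM, so it was outside the count, in which 6 of 18 genes were kept, 0 higher and 1 lower. The share of lower genes over all those kept there was 1.99%. Slc9a3r2, a scaffold for such exchangers, was at 5.63 and 6.85 RPKM in luminal epithelium and 5.31 and 5.67 RPKM in stroma. Slc12a4, a potassium and chloride cotransporter, was at 1.81 and 3.08 RPKM in stroma and 0.912 and 0.772 RPKM in luminal epithelium. In stroma 9 of the 18 were kept, with 0 past the threshold.

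Other chloride channels were not past the threshold in either compartment, 0 of 3 kept in luminal epithelium and 0 of 4 in stroma. Ano1, a calcium-activated chloride channel, was at 6.10 and 6.94 RPKM in stroma and at 0.175 and 0.306 RPKM in luminal epithelium. Ano6 was at 3.19 and 3.42 RPKM in luminal epithelium and 2.72 and 3.74 RPKM in stroma, and Clcn3, an intracellular chloride and proton exchanger, at 5.34 and 4.53 RPKM and at 1.38 and 1.40 RPKM. Among potassium channels, which set the electrical drive for chloride exit, 0 of 3 kept in luminal epithelium and 0 of 1 in stroma were past the threshold. Kcnk1, a leak channel, was at 16.8 and 20.7 RPKM in luminal epithelium and 0.799 and 1.52 RPKM in stroma. Kcne3, a subunit that holds a potassium channel open, was at 7.12 and 10.3 RPKM in luminal epithelium and at 0.0189 and 0 RPKM in stroma. Kcnj13, an inward rectifier, read 0.420 and 0.567 RPKM in luminal epithelium and 0.395 and 0.527 RPKM in stroma.

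Car2, the cytosolic carbonic anhydrase, was the most abundant of the 10 genes in luminal epithelium. Car2, on chromosome 3 at 14886426 to 14900770, read 46.7 RPKM in control and 30.9 RPKM in labelled knockout luminal epithelium and 0.752 and 0.799 RPKM in stroma. It ranked 198 among all genes in the luminal epithelium control and 344 in the labelled knockout. The control was 1.51-fold higher, with limits of 1.37 and 1.66, and the log2 difference of -0.58 lay between -0.82 and -0.50 under the rescalings. In stroma the ratio was 1.06, with limits of 0.738 and 1.54. Aqp11 and Car2 therefore differed in opposite directions between the same luminal epithelium libraries.

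The genes that lie beside Car2 did not share its level. Car3, 14.1 kb away, was listed at 0 in 3 libraries and at 0.0172 RPKM in labelled knockout luminal epithelium, and Car1, a further relative in the cluster, was listed at 0 in all 4. Car13, the remaining relative there, was at 0.245 and 0.865 RPKM in luminal epithelium and 0.402 and 0.674 RPKM in stroma. Of the 15 other carbonic anhydrases 2 were kept in luminal epithelium and 0 in stroma, with 0 past the threshold. Car5b, the mitochondrial form, was at 5.96 and 9.32 RPKM in luminal epithelium and 0.475 and 0.531 RPKM in stroma, and Car12, a membrane form, at 1.14 and 0.947 RPKM and 0.236 and 0.172 RPKM. Car11, a form without enzyme activity, was at 0.652 and 1.06 RPKM in stroma and 0.542 and 0.291 RPKM in luminal epithelium. Across the 8 lists of other transport genes, 105 genes, 36 were kept in luminal epithelium with 1 higher and 1 lower. Over all genes kept there, 5.03% were higher and 1.99% lower. In stroma 31 were kept with 0 of either, where 1.45% of all genes kept were higher and 1.59% lower.

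Comparison of compartments within a genotype asked where each gene was expressed, with levels set across 2 tables that were normalized separately. In the controls 2 of the 10 genes were kept and both, Car2 and Aqp11, were higher in luminal epithelium, where 19.6% of 8030 genes kept were higher and 12.1% lower, 31.7% in all. In the labelled knockouts 3 were kept, with Car2 and Aqp11 higher and Aqp1 lower in luminal epithelium, where 20.7% of 8350 genes kept were higher and 10.7% lower, 31.4% in all. Higher genes made up 61.8% of those past the threshold in the controls and 66.0% in the labelled knockouts. Division by the upper quartile gave 34.03% and 44.9% and moved the median of all genes by -0.53 and -0.42. Scaling to sums that leave out the 50 most abundant genes gave 52.3% and 50.2% and moved it by -0.18 and -0.32. The log2 differences of Car2 were 4.77 and 4.15 and those of Aqp11 3.28 and 4.31, all larger than these shifts.

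Car2 was 62.1-fold higher in luminal epithelium than in stroma in the controls, with limits of 46.4 and 84.6, and 38.6-fold higher in the labelled knockouts, with limits of 30.9 and 48.9. Aqp11 was 50.4-fold higher, with limits of 34.8 and 75.1, and 88.9-fold higher, with limits of 69.1 and 116.5. The 7 epithelial markers were between 107.1-fold and 780-fold higher in the controls and between 285-fold and 2302-fold higher in the labelled knockouts. Both genes thus had lower ratios than all 7 epithelial markers in each genotype, so their stromal values were larger, relative to luminal epithelium, than those of these 7. Glandular markers had ratios from 0 to 49.5 in the controls, below those of both genes. In the labelled knockouts their ratios ran from 6.27 to 7207 where the stromal value was above 0. The epithelial markers summed to 0.376 times as much in labelled knockout as in control stroma, while Car2 and Aqp11 had stromal ratios of 1.06 and 1.27. The part of captured epithelium in these stromal values was not tested.

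Scnn1a was 15.6-fold higher in luminal epithelium in the controls, with limits of 6.74 and 39.3, and 7.93-fold higher in the labelled knockouts, with limits of 4.35 and 15.9. Aqp1 was 13.4-fold higher in stroma than in luminal epithelium in the labelled knockouts, with limits of 9.95 and 18.5. Scnn1b was 112.5-fold higher in stroma in the labelled knockouts, with limits of 31.4 and 879, the width of which reflects 2.08 reads in luminal epithelium. In the plot of transport genes by compartment, Scnn1b and Aqp1 lay on the stromal side with Hsd11b2 and Ano1. Car2 and Aqp11 lay on the luminal side with Fxyd4 and all 8 protease and inhibitor genes. Of these 8, 6 were higher past the threshold in each genotype, and Furin changed sign under rescaling. The pump genes lay on both sides, 4 of 7 kept higher and 3 lower in luminal epithelium in the controls.

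**Figure D4:**
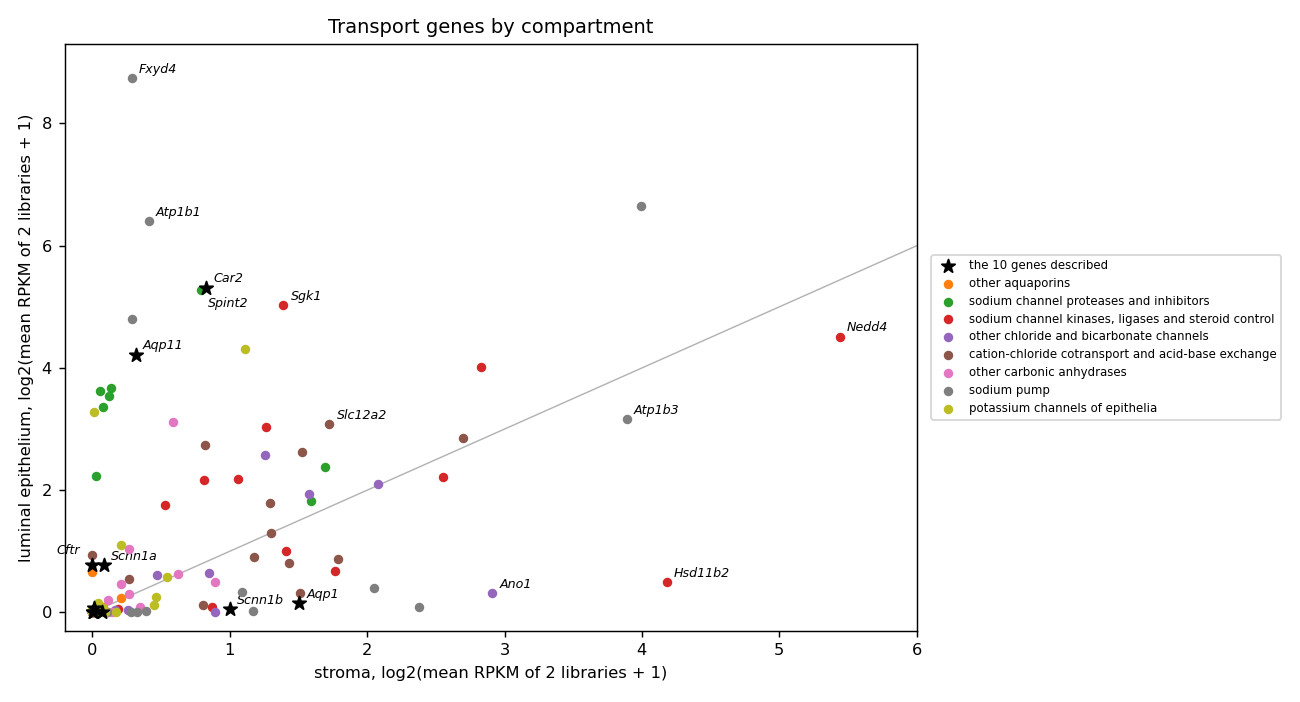
Mean RPKM of the control and labelled knockout libraries in stroma (horizontal) and luminal epithelium (vertical), each as log2(mean + 1), for 115 transport genes, with the 10 genes described as black stars and the other lists in colours. The line marks equal levels across the 2 separately normalized tables. Car2 and Aqp11 lie far above the line with Fxyd4, and Aqp1 and Scnn1b lie below it.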

How the data were processed

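RNA was measured by stranded total RNA sequencing after ribosomal RNA depletion, per the labels' protocols, in 4 libraries, 1 for each compartment and genotype. The authors deposited 2 tables, 1 per compartment, with RPKM for each library and with p-values and q-values of their own comparison, per the file headers. The build was mm9, and the tools named were Cufflinks 2.0.2, TopHat2 2.0.5, TopHat and CASAVA 1.8.2, per the submitters' processing notes. The sources used here did not give their roles, the filters or whether counting used strand, so reads of overlapping antisense transcripts cannot be told apart, though no other listed locus overlapped the 10 genes.

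Differences were taken with a pseudocount of 1 RPKM, which understates low genes, and ratios without one. Each group had 1 library, so nothing was tested across samples. Depth was estimated from the spacing of low RPKM times transcript length less 200 bases, with lengths from GENCODE vM21 by RefSeq identifier, known for 97.3% of genes. Between 64.5% and 65.8% of low values lay within 0.2 of whole reads, where evenly spread values would give 40%, so read numbers are approximate. Amplified reads do not count independent molecules. Starts were raised by 1, because 4312 of 18457 loci had an annotated length with starts counted from 0, against 506 from 1.

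The 10 genes and the lists were chosen with earlier results of these data known, and the counting limits were added after the data were seen. Beside the 10, each list named its 2 most abundant genes per compartment and genes reaching 1 RPKM in a library with a log2 genotype difference of at least 1. A few genes of these lists are not reported here. Luminal epithelial markers, also listed, summed to 100.3 and 112.8 RPKM in luminal epithelium. Alternatives were a pseudocount of 0.1, both rescalings, no minimum or a minimum of 5 RPKM, and leaving out small RNA and unnamed models. Steps were run on simulated data drawn with counting error only, at the estimated depths and lengths. Such data check the code and do not test those assumptions or the effect of amplification. The software was scipy 1.17.1, pandas 2.3.3 and numpy 2.4.6 in Python 3.11.15, with plots from matplotlib 3.10.9.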

Additional observations from a re-analysis of the deposited data

Results flagged for a closer look

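Slc12a2, which encodes the cotransporter that loads chloride into secretory cells, was lower past the threshold in luminal epithelium. In stroma it differed little, with the opposite sign. Its log2 difference, labelled knockout against control, was -1.22 in luminal epithelium and 0.17 in stroma, with counting limits that left out equal levels in both. With 1 library per group the difference between compartments was not tested.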

How the results depend on the processing

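Counts over the 10 genes changed under 3 alternatives. Scaling to the sums without the 50 most abundant genes left 0 genes higher in luminal epithelium in place of 1, as Aqp11 moved below the threshold, and 1 gene in place of 2 higher by counting limits there, as those of Cftr came to include 1. A minimum of 5 RPKM left 0 higher in stroma and 0 lower between compartments in the labelled knockouts, since Aqp1 was no longer kept. No minimum gave 2 lower between compartments in the labelled knockouts, with Scnn1b added. Of 120 log2 differences of single genes recomputed under the pseudocount and both rescalings, 0 of those past the threshold changed sign. Of the 120, 67 were scored as moved and 53 as the same, but these scores do not follow the size of the change. After division by the upper quartile Aqp1 in luminal epithelium went from 0.284 to 0.292 and was scored as moved. Aqp11 there went from 1.10 to 1.18 and was scored as the same. With a pseudocount of 0.1 RPKM the luminal epithelium difference of Aqp1 went from 0.28 to 1.67 and that of Aqp8 from 0.15 to 1.05. Both genes were listed at 0 in the control there. The difference of Car2 went from -0.58 to -0.59. Over all genes kept in luminal epithelium, 389 higher and 154 lower became 640 and 279 with a pseudocount of 0.1 RPKM, 312 and 233 without the 50 most abundant genes, 204 and 62 with a minimum of 5 RPKM, and 260 and 130 without small RNA and unnamed models. In stroma 112 higher and 123 lower became 33 and 39 without those models. No paired analysis was possible because each group has 1 library. The shallow luminal epithelium control limits the values of Aqp1, Aqp3, Aqp5, Aqp8, Scnn1b and Scnn1g.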

Other observations

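Genes beside these loci, picked after their values were seen, read as follows, control before labelled knockout. Pak1, a kinase gene 104.7 kb beyond Aqp11, was at 3.603 and 1.82 RPKM in luminal epithelium, where Aqp11 was higher in the labelled knockout, and Clns1a, a splicing assembly gene 5.59 kb on its other side, was at 2.23 and 2.39 RPKM. Ltbr and Tnfrsf1a, receptor genes on either side of Scnn1a, read 3.65 and 5.30 RPKM (Ltbr) and 1.47 and 1.30 RPKM (Tnfrsf1a) in luminal epithelium. Cog7, a Golgi complex gene 4.32 kb from Scnn1b, was at 1.203 and 0.766 RPKM in stroma. Cttnbp2, next to Cftr, was at 3.04 and 3.49 RPKM in luminal epithelium and at 0.820 and 0.753 RPKM in stroma, where Cftr was listed at 0. Fam188b, next to Aqp1, was at 1.61 and 1.27 RPKM in stroma.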
